A study of Rattus norvegicus with 8 samples.

Results

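The complement components and regulators described here are 9 rat genes, found on the array by the RefSeq accession of their probes, out of 15637 genes that the probes named. They comprise 6 activators (C1r, C1s, C4a, C2, C3 and Cfb) and 3 regulators (Serping1, Cfi and Cd55). The C1q chains were left out of the group. Transcripts were measured on one-colour arrays in total kidney RNA of male rats, labelled 10 weeks old and sampled at day 28, with 4 samples from rats given saline and 4 from rats given colistin at 30 mg/kg. Colistin, a last-line antibiotic of the polymyxin class, is toxic to renal tubule cells, and the comparison asks how complement transcripts differed after it. The labels name no strain, number the samples within a group without saying that each came from its own animal, and do not state whether tubules were isolated, although the title speaks of injured tubules. The p-values therefore cover the spread between samples only, which may be technical in part.

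Complement is a cascade of plasma proteins that marks surfaces for removal. The classical route starts when C1q binds its target and switches on the proteases C1r and C1s, which cut C4 and C2, and the alternative route amplifies C3 cleavage through factor B. Most plasma complement is made in the liver, and the kidney is known to make several components locally, C3 among them. Regulators stop the cascade at several steps: C1 inhibitor blocks C1r and C1s, factor I cuts the activated forms of C3 and C4, and decay-accelerating factor takes the C3-cleaving enzymes apart.

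All values below are log2 of the processed spot signal minus the array's own 75th percentile, so that 0 is the level of a fairly bright probe. Each difference between groups sets a probe only against itself. Summed signals and statements of brightness go across probes, so the brightest probes weigh most in a sum. The saline arrays were dimmer before this scaling, with 75th percentiles of 156 to 197, while the colistin arrays had 271 to 317. The 8 arrays lay on 3 slides, each of which held both groups. All 9 genes fixed as kidney markers were measured, and the summed scaled signal of these 9 was 269 to 461 times the 75th percentile on saline arrays and 129 to 219 times on colistin arrays. That sum rests mostly on Slc34a1 and Lrp2. Of the 9 markers, 2 had a positive and 7 a negative difference after colistin, and 0 passed (limma). Umod gave -6.58 ± 1.39 (adjusted p = 0.0586, limma) and was not well above background on colistin array 1. Aqp2 read -2.79 on that array, against 2.50 to 3.43 on the other colistin arrays. The precision of every value is limited by the number of arrays.

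Colistin kidneys had higher levels of C4a and Cfi than saline kidneys, and no other member passed the test. C4a, the source of the classical C3-cleaving enzyme's noncatalytic subunit, rose by 3.57 ± 0.62 on the log2 scale (± SE, 4 arrays in each group), or 11.9-fold (limma, Benjamini-Hochberg adjusted p = 0.0309). Cfi, the protease that inactivates cut C3 and C4, was higher after colistin (adjusted p = 0.00321, limma). It was not well above background on any saline array. With the saline side raised to the lowest signal well above background, the rise was 69.4-fold, which is not a firm minimum. Of the 8 members tested, 2 were called, both higher. Over all 12411 genes tested 2.00% were called, 1.46% as higher and 0.540% as lower. Cfi and C1s passed the filter on dim probes only through the colistin arrays, so the share of members called supports nothing by itself.

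The classical proteases gave estimates of opposite sign. C1r, the protease that C1q binding activates first, stood at 1.04, 0.30, -0.12 and -0.37 on saline arrays 1 to 4, and at -4.31, -4.03, -1.67 and -1.52 on colistin arrays 1 to 4. All 4 colistin values lay below all 4 saline values, and colistin arrays 1 and 2 were far lower than arrays 3 and 4. The difference was -3.10 ± 0.73 (95% interval -4.79 to -1.41), and it did not pass the test (adjusted p = 0.0815, limma). The probe was printed 10 times per array, and its 10 spots spread by an SD of at most 0.14 on the log2 scale on any array, against an SD of 1.5 between the colistin arrays. With normexp background correction the difference was -1.89 and passed (adjusted p = 0.0296). In RNA pooled over many cells, fewer cells of a type and less RNA per cell cannot be told apart.

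Markers of fibroblasts and macrophages, cells known to make classical components, had mostly negative differences beside that of C1r. Over all 12411 genes tested, 6815 were negative. Of 7 proximal tubule markers tested, 2 had a positive and 5 a negative difference, and 2 passed, both lower (Slc22a6 and Aqp1, limma). With slide as a block these 2 lost the call (adjusted p = 0.118 and 0.122, limma). Of 2 neutrophil markers tested, 2 were negative and 0 passed (limma). The classical members C4a, C1s and C2 had positive estimates (3.57, 1.48 and 1.61). Of 6 fibroblast markers tested, 6 had a negative difference and 1 passed, the collagen gene Col1a2 (-2.94 ± 0.44, adjusted p = 0.0198, limma; it lost the call without colistin array 2 or 4, with adjusted p values no higher than 0.0553, and under the slide block, adjusted p = 0.0925). The summed scaled signal of these 6 was 23.2 to 40.4 on saline arrays and 6.67 to 16.7 on colistin arrays. Lum and Postn, also listed, did not pass the filter on dim probes. Of 8 macrophage markers tested, 7 had a negative difference and 0 passed (limma; 6 had an unadjusted p under 0.05, 5 of them negative). The exception was Cd14, a lipopolysaccharide co-receptor gene, with the largest difference of the 8 (2.22 ± 0.58, adjusted p = 0.0977, limma) and 0 saline and 4 colistin arrays well above background. The summed scaled signal of the 8 was 31.4 to 50.5 against 12.8 to 19.7. Their part in the C1r difference was not tested.

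C1s, the protease that C1r activates and that cuts C4 and C2, stood at -5.90, -1.79, -4.13 and -5.46 on the saline arrays and at -4.08, -1.72, -5.18 and -0.38 on the colistin arrays. The groups overlapped, and saline arrays 1 and 4 were not well above background. The difference of 1.48 ± 1.25 did not pass (adjusted p = 0.489, limma), with a 95% interval from -1.39 to 4.35 that holds changes in both directions. It was 3.96 within slide 1, -3.39 within slide 2 and 1.90 within slide 3.

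C4a gave the tightest values of any member after colistin. Its level was 1.80, -0.40, 1.19 and -1.03 on saline arrays 1 to 4 and 3.73, 4.16, 3.92 and 4.03 on colistin arrays 1 to 4. Every colistin value lay above every saline value, and the SD was 0.18 on colistin arrays against 1.32 on saline arrays. The 95% interval of the rise was 4.41-fold to 32.0-fold. Within slides 1, 2 and 3 the difference was 3.77, 4.32 and 2.69. The call was lost without saline array 2 (adjusted p = 0.0684, limma), without any 1 colistin array (adjusted p from 0.0794 to 0.0895) and with slide as a block (3.53, adjusted p = 0.124). It was also lost with the replicate number as a block (adjusted p = 0.118, limma). Rats carry a near-identical gene, C4b, for which no probe was named here, so signal from the pair could not be told apart.

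C2, the protease subunit of the classical C3-cleaving enzyme, had a pair of probes. The brighter probe read -2.97, -3.54, -2.93 and -2.93 on the saline arrays and -0.16, -3.58, -0.68 and -1.52 on the colistin arrays. Colistin arrays 1, 3 and 4 were above every saline array, and colistin array 2 was below all of them. The dimmer probe, not well above background on any saline array, also had its lowest colistin value on array 2 (-5.83 against -2.38, -2.10 and -4.25 on arrays 1, 3 and 4). The brighter probe gave 1.61 ± 0.70 (adjusted p = 0.22, limma). With its saline side raised to the lowest signal well above background, the dimmer one was 5.34-fold higher after colistin. It did not pass in a fit over 23710 probes (adjusted p = 0.131, limma).

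C3, on which all routes converge, read -1.51, -0.19, -2.83 and -3.98 on the saline arrays and 0.44, 2.66, -0.51 and 1.41 on the colistin arrays. The groups overlapped by a single pair of arrays, since saline array 2 lay above colistin array 3. The estimate was 3.13 ± 0.94, with a 95% interval from 0.96 to 5.30, and it did not pass (adjusted p = 0.13, limma). The pair of arrays that overlapped shared slide 2, within which the difference was -0.32, against 5.41 within slide 1 and 3.75 within slide 3. With normexp the estimate was 2.00 and passed (adjusted p = 0.0483), where it did not under the other alternatives run (adjusted p from 0.092 to 0.307).

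Cfb, the protease of the alternative C3-cleaving enzyme, had 1 array far above the others in each group. Its values were 1.13, 0.23, -0.45 and 5.18 on saline arrays 1 to 4 and -0.72, 2.35, -0.35 and -0.78 on colistin arrays 1 to 4. The difference of -1.40, with a 95% interval from -4.34 to 1.54, did not pass (adjusted p = 0.524, limma). Its size rested on saline array 4: without that array the estimate was -0.18, and without saline arrays 1 and 4 together it was 0.23.

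**Figure D1:**
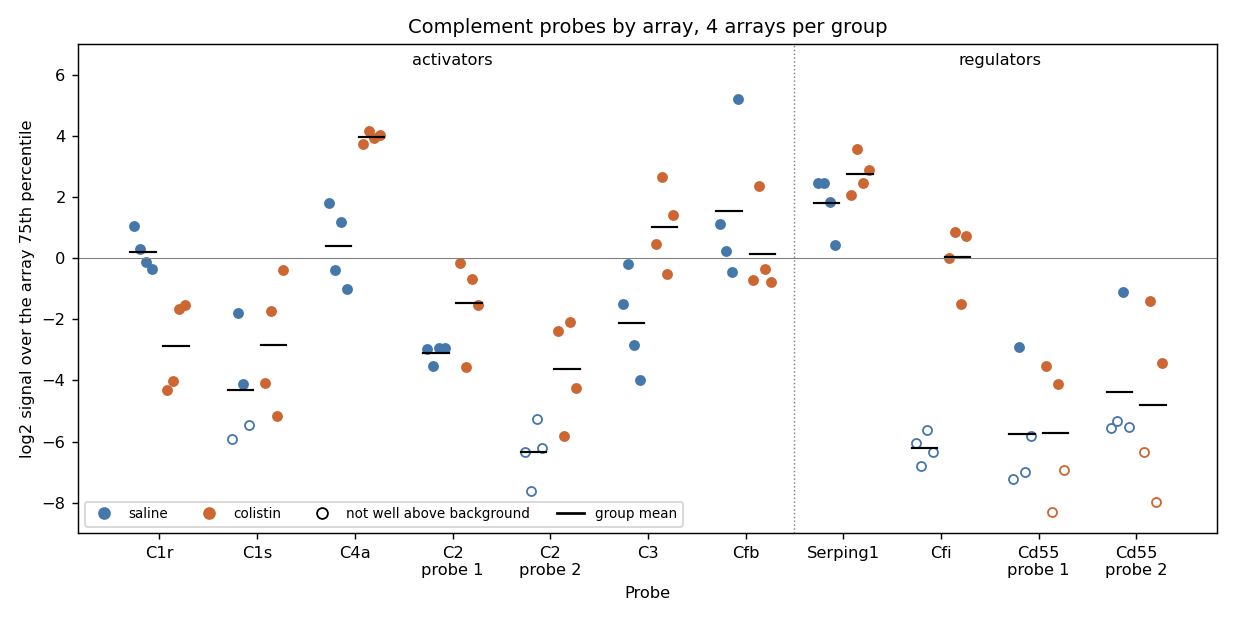
Log2 signal over the array's 75th percentile (vertical axis) for every probe of the 9 members (horizontal axis), with 1 point per array, 4 saline and 4 colistin, and a bar at each group mean; open points were not well above background. All 4 colistin points of C4a (3.73 to 4.16) and Cfi (-1.49 to 0.84) lie above all saline points, all 4 of C1r lie below, and the points of Cd55 scatter over both groups.

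Among the regulators, Cfi showed the largest rise of any member. Its levels on saline arrays 1 to 4 were -6.04, -6.81, -5.62 and -6.33, and on colistin arrays 1 to 4 they were 0.01, 0.84, -1.49 and 0.72. The groups lay far apart, and colistin array 3 was the lowest of its group. The probe was printed 10 times per array, and 0 of 10 spots were well above background on each saline array (processed signals from 1.03 to 6.88), while 10 of 10 were on each colistin array (89.1 to 582). Since the saline side was at background, the fitted log2 difference of 6.22 ± 0.56 has no certain size, and with normexp, which compresses dim signals, it was 2.04 (adjusted p = 0.0281, limma). Within slides 1, 2 and 3 the difference was 7.03, 5.32 and 5.98. Cfi passed in each of the 8 fits that left out 1 array (adjusted p from 0.0016 to 0.0167) and with slide as a block (adjusted p = 0.0109). It did not pass with the replicate number as a block (adjusted p = 0.0728, limma).

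Serping1, which encodes C1 inhibitor, was bright in both groups. It read 2.46, 2.46, 1.84 and 0.44 on the saline arrays and 2.06, 3.58, 2.46 and 2.89 on the colistin arrays. The groups overlapped, and the difference of 0.94 ± 0.55 did not pass (adjusted p = 0.328, limma), with a 95% interval from -0.32 to 2.21. Cd55, which encodes decay-accelerating factor, could not be tested: neither of its probes was well above background on 3 arrays of a group. One probe was so on saline array 2 and on colistin arrays 1 and 3, the other on saline array 3 and on colistin arrays 2 and 4, so that the probes picked out different arrays. Kept without the filter, the brighter Cd55 probe gave -0.42 ± 1.59 (adjusted p = 0.885, limma).

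Set side by side, the 6 activators had a median log2 difference of 1.55, with 4 positive and 2 negative, and the 2 regulators tested gave 0.94 for Serping1 and, with no certain size, 6.22 for Cfi. The median of all genes was -0.14. With normexp the activator median was 0.31, against -0.34 for all genes. Relative to the saline means the activator median was 1.41, 1.71, 0.38 and 2.55 on colistin arrays 1 to 4, and 0.37, -0.18, -0.084 and -0.86 on saline arrays 1 to 4. Colistin array 3 was the lowest of its group. The values of saline and colistin did not overlap for 3 of the 8 members (C1r lower, C4a and Cfi higher), against 18.6% of all genes, 6.89% higher and 11.7% lower. An unadjusted p under 0.05 was found for 4 of the 8, against 22.7% of all genes. Cfi and C1s passed the filter on dim probes only through the colistin arrays, so these counts and the activator median support nothing by themselves.

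**Figure D2:**
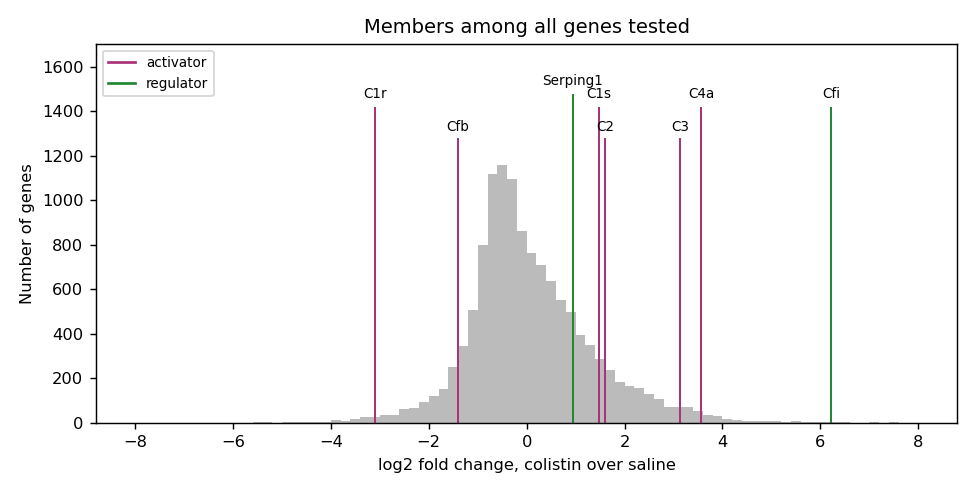
Number of genes (vertical axis) by log2 fold change of colistin over saline (horizontal axis) for the 12411 genes tested, with a line at each of the 8 members tested, coloured by role. The members run from C1r at -3.10 to Cfi at 6.22, with 6 above 0 and 2 below it, while the median of all genes is -0.14.

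The members did not all peak on the same arrays. C3, C4a, Cfb, Serping1 and Cfi were highest on colistin array 2 among the colistin arrays, on which C2 was lowest. C3, C1s and Cfi were lowest on colistin array 3, and C1r, C4a and Serping1 on colistin array 1. Among the saline arrays, C1r, C4a, C3 and Serping1 were lowest on array 4, on which Cfb was highest.

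Markers of hepatocytes, the main source of plasma complement, and 4 of 6 markers of injured tubules had positive differences beside those of C4a, Cfi and C3. The members C1r and Cfb had negative estimates (-3.10 and -1.40). Of 9 hepatocyte markers, 6 were tested, all 6 had a positive difference, and 1 passed: Ambp, the precursor of alpha-1-microglobulin (4.84 ± 0.89, adjusted p = 0.0383, limma), which lost the call without any 1 array (adjusted p from 0.0543 to 0.0994) and with slide as a block (adjusted p = 0.0783). Serpina1 was well above background on all 4 saline arrays, and the other 5 on 1 or 2 of them, so that these 5 passed the filter only through the colistin arrays and the count of positive signs supports nothing by itself. The summed scaled signal of the 6 was 0.173 to 3.23 on saline arrays and 10.2 to 69.7 on colistin arrays. Fgb, which encodes a fibrinogen chain, was the brightest of the 6 on each colistin array (7.83 ± 1.68, adjusted p = 0.0624, limma). On colistin arrays 1 and 4 it read 3.15 and 3.73, while every other marker tested read -0.78 or lower. The sum on those arrays therefore rests mostly on Fgb. On colistin array 2, Alb, Ttr, Serpina1 and Ambp read 2.83 to 3.68. Alb, which encodes albumin, was well above background on 1 saline and 3 colistin arrays (3.12 ± 2.52, adjusted p = 0.473), and Apob, Cyp2c11 and Hpx did not pass the filter on dim probes. Alb read -3.78, 3.29, 0.11 and -8.21 on colistin arrays 1 to 4, and Ttr read -4.61, 3.68, 0.98 and -5.58. Among the colistin arrays, all 6 tested were highest on array 2. So were C3, C4a, Cfb, Serping1 and Cfi, while C1r, C1s and C2 were not. For the called members the margin was small: C4a read 4.16 on array 2 and 4.03 on array 4, and Cfi 0.84 and 0.72. Alb and Ttr were lowest on array 4. Of 6 markers of injured tubules tested, 4 had a positive and 2 a negative difference, and 2 passed, both higher. They were Havcr1, which encodes kidney injury molecule 1 (4.48 ± 0.48, adjusted p = 0.0063, limma), and Spp1, which encodes osteopontin (5.70 ± 0.53, adjusted p = 0.00374). Leaving out any 1 of the 8 arrays kept both calls, as did the slide block (adjusted p = 0.0291 for each). The markers with a negative difference were Vcam1 (-1.51 ± 0.58, adjusted p = 0.185, limma) and Krt18 (-0.53 ± 1.57, adjusted p = 0.86, limma). The summed scaled signal of these 6 markers of injured tubules was 2.81 to 5.83 on saline arrays and 27.0 to 53.6 on colistin arrays. On the colistin arrays this sum rests mostly on Spp1 and Havcr1. The part of either list in the complement differences was not tested.

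For C4a, Cfi, C3 and C1r the sequence before the transcript start is shown, as the pair that passed beside the largest uncalled differences in either direction. The windows are the 250 bases upstream of the start in RefSeq's GRCr8 table, which held 5 of the 9 members, and they lie at chr20:4010107-4010356 (plus strand), chr2:221063066-221063315 (plus), chr9:2201340-2201589 (minus) and chr4:159098763-159099012 (plus). Capitals mark matches, on either strand, to GGGANNNNCC (NF-kB type) and TTGCNNAA (C/EBP type). The motifs TTCNNNGAA (STAT type) and GAAANNGAAA (IRF type) were also searched and had no match in these windows.
C4a: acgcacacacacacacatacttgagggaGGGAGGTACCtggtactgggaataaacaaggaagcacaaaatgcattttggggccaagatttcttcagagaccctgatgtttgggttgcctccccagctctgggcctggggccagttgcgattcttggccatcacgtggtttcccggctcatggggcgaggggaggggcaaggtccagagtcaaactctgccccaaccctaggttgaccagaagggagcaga
Cfi: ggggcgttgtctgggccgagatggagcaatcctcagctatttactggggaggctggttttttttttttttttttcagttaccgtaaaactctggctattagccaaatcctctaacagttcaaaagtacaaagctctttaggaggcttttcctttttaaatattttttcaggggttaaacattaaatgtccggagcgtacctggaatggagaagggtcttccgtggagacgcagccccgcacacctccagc
C3: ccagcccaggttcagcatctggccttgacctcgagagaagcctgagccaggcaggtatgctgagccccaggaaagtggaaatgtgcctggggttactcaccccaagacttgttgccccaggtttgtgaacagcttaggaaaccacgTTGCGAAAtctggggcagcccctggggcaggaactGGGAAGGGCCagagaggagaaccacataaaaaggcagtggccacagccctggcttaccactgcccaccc
C1r: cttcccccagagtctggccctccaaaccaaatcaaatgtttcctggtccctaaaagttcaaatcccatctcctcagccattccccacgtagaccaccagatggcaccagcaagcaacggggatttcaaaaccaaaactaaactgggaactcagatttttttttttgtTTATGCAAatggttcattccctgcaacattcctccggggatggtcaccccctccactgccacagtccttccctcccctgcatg
C4a held 1 NF-kB type match, 222 bases before the start. C3 held a C/EBP type match 104 bases and an NF-kB type match 69 bases before the start, C1r held a C/EBP type match 83 bases before it, and the Cfi window held none of the 4 motifs. Of 27457 rat windows of this length, 16.8% held the NF-kB type motif, 9.20% the C/EBP type, 7.52% the STAT type and 3.29% the IRF type. A match is a run of letters and not a shown binding site.

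Of 45 other complement genes listed, 37 had a named probe and 23 were tested, and 0 passed (limma; 4 had an unadjusted p under 0.05). With normexp 5 of the 23 passed, all lower, where 27.3% of all genes passed, 5.51% higher and 21.8% lower. Without saline array 1 Cd93 passed. The median difference of the 23 was -0.59, with 9 positive and 14 negative, beside -0.14 for all genes. Over all 12411 genes, 5596 were positive and 6815 negative. Of the 23, Cfp, C5ar2 and the soluble regulator C4bpb passed the filter on dim probes only through the colistin arrays. C5ar1 and Cd93 passed it only through the saline arrays. The counts of signs therefore support nothing by themselves. The C1q chains, which recognise the target and are known as macrophage products, gave -1.65 ± 0.73 for C1qa, -0.78 ± 0.33 for C1qb and -0.67 ± 0.70 for C1qc (adjusted p of 0.225, 0.208 and 0.583, limma). The 3 chains and C1r all had negative estimates, while C1s had a positive one.

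In the lectin pathway 3 genes were tested, and the proteases Masp1 and Masp2 gave -0.59 and 0.73. In the alternative pathway Cfd, the protease that cuts factor B, gave 0.53 and properdin, Cfp, 1.30. Cfp was well above background on 1 saline and 3 colistin arrays. In the terminal pathway C6 and C8b gave -0.28 and -0.32. None of these passed (limma, adjusted p of at least 0.274 in each of these groups), and Mbl1, Mbl2, Fcna, Colec10, Colec12, C8a and C9 were too dim to be tested.

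The other regulators gave estimates of both signs. Of 5 soluble regulators tested, 2 had a positive and 3 a negative estimate. Cpn1, the catalytic subunit of the carboxypeptidase that trims the anaphylatoxins, gave -2.48 ± 0.83 (adjusted p = 0.153, limma) and passed with normexp. Of 4 membrane regulators tested, Cd59b, an inhibitor of the membrane attack complex, gave -1.13 ± 0.54 (adjusted p = 0.251), and Cr1l, which encodes the rodent C3 regulator Crry, gave 0.34 ± 0.53 (adjusted p = 0.723).

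Of the 4 receptors tested, 1 had a positive and 3 a negative estimate, and 0 passed (limma; 1 had an unadjusted p under 0.05). The C3a receptor gene C3ar1 gave -1.37 ± 0.71 (adjusted p = 0.281, limma) and the C5a receptor gene C5ar1 -3.95 ± 1.76 (adjusted p = 0.226). C5ar1 was well above background on 3 saline and 2 colistin arrays. C5ar2, which encodes the other C5a receptor, gave 0.57 ± 1.88 (adjusted p = 0.875, limma), with 1 saline and 3 colistin arrays well above background. Cd93, once described as a C1q receptor and known from endothelium, gave -4.83 ± 1.12 (adjusted p = 0.0776), with 4 saline and 2 colistin arrays well above background. Of 6 endothelial markers tested, 6 had a negative difference and 3 passed (Pecam1, Kdr and Plvap). These 3 lost the call with slide as a block (adjusted p = 0.0671, 0.0633 and 0.0512, limma). The summed scaled signal of the 6 was 27.9 to 50.4 on saline arrays and 4.55 to 6.72 on colistin arrays. Their part in the Cd93 difference was not tested. Itgam, Itgb2, Cr2 and Vsig4 were too dim to be tested.

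**Figure D3:**
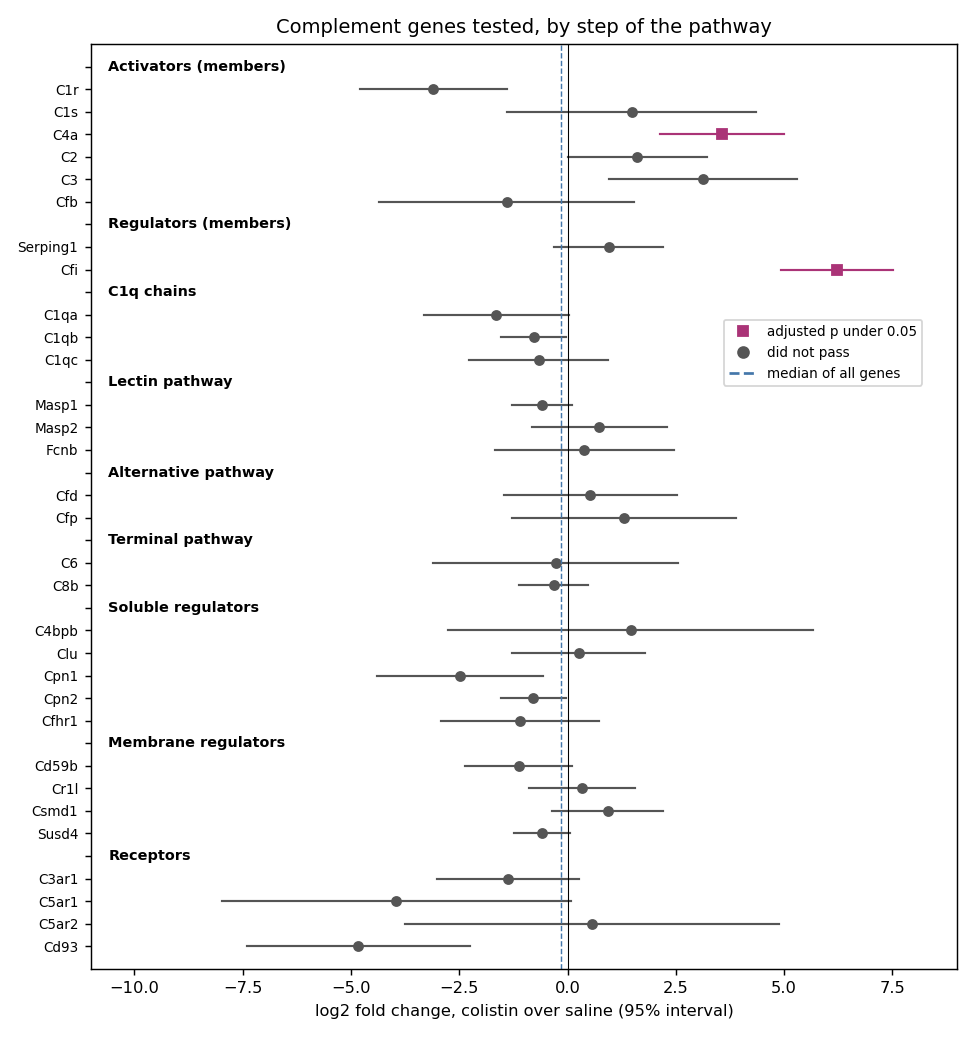
Log2 fold change of colistin over saline with its 95% interval (horizontal axis) for the 8 members and 23 other complement genes tested, grouped by step (vertical axis); squares passed at an adjusted p under 0.05, circles did not, and the dashed line is the median of all genes at -0.14. Only C4a and Cfi are squares, and the receptor Cd93 (-4.83) and C5ar1 (-3.95) lie farthest to the left. Cd93 and C5ar1 passed the filter on dim probes only through the saline arrays.

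**Figure D4:**
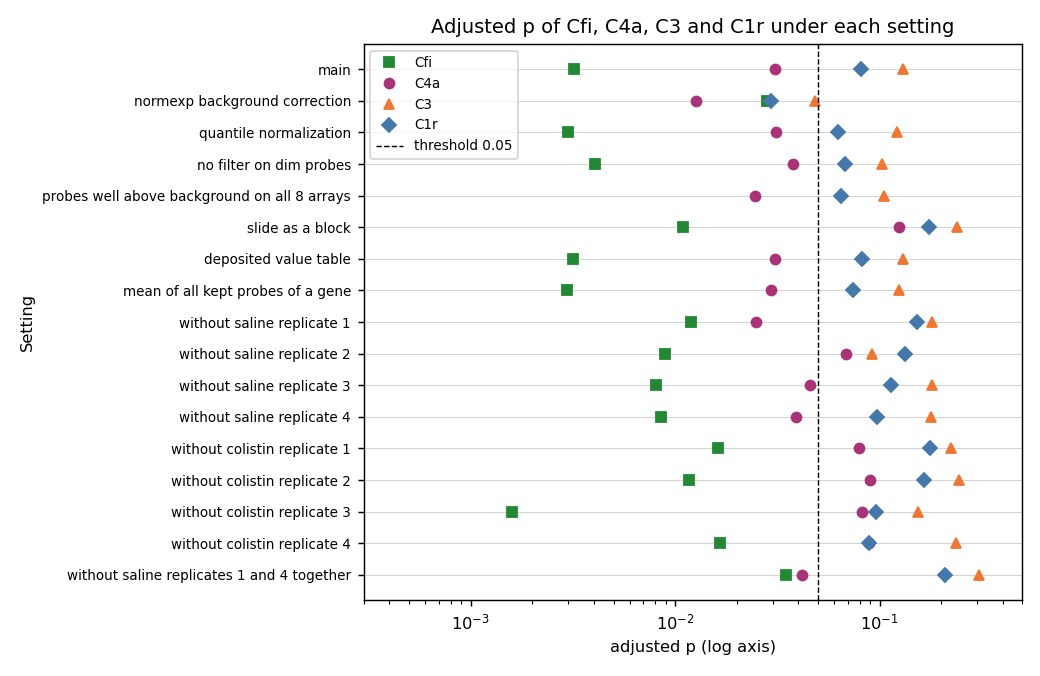
Adjusted p on a log axis (horizontal) of Cfi, C4a, C3 and C1r under the fit as reported and the alternatives to it other than the replicate block, which is not drawn (vertical axis), with the threshold of 0.05 dashed. Cfi stays left of the line in every setting drawn for it, C4a crosses it without saline array 2, without each colistin array and with slide as a block, and C3 and C1r are left of it with normexp alone. With the replicate block neither Cfi nor C4a passed.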

How the data were processed

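Per the file headers, the deposited scanner files hold spot intensity in linear units, already corrected for background and detrended within each array by the authors' software and not scaled between arrays. That software was Agilent Feature Extraction, release 10.5, per the submitters' processing notes. The deposited table of the series holds log2 values whose scale and centring are not given in the sources used here. Differences between its columns correlated at 0.9998 or above with those of the scanner values.

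Control spots and 257 to 461 outlying spots per array were left out and spots of a probe averaged, which gave 30367 probes, of which 18643 were named through RefSeq accessions (GRCr8 table). Log2 signal was centred on each array's 75th percentile. Probes were kept that stood well above background on 3 or more arrays of either group, and the brightest probe stood for a gene (12411 genes). A probe counted as well above background on an array when any of its spots was. Groups were compared with lmFit and eBayes in limma 3.58.1 (R 4.3.3), in a two-sided test adjusted over all genes (Benjamini-Hochberg, threshold 0.05); the fit was tested on simulated data. For a probe at background in a whole group, the fold given sets the bright group's mean against the higher of the dim probe's value and the lowest signal well above background. Such a fold is not a firm minimum. Cd14 lay at or above that lowest signal on the saline arrays without being well above background. Gene list medians and counts are descriptions. All members were named whatever their result; other complement genes were counted in full, except 1 that is not reported here. The members and lists were chosen with earlier results of these data known. The files held no mean signal column, so normexp used median signals. No arrays were identical: the highest correlation between arrays was 0.909 across genes.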

Additional observations from a re-analysis of the deposited data

Results flagged for a closer look

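Among the 16 groups of 4 arrays formed by the 8 members tested, 2 held an array whose gap to the nearest other array was large for the group's range, where chance gives about 1 in 20. C2 on saline array 2 read -3.54, against -2.97 to -2.93 on the other saline arrays. Cfb on colistin array 2 read 2.35, against -0.78 to -0.35 on the other colistin arrays. Saline array 4, on which Cfb read 5.18, fell short of that limit, with a gap of 0.721 of the range.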

How the results depend on the processing

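Of all genes tested, 248 were called (181 higher, 67 lower), and the count was 3391 with normexp (684 higher, 2707 lower), 203 under a filter that every array be well above background (121 higher, 82 lower), 40 with slide as a block (35 higher, 5 lower), 143 without saline replicates 1 and 4 together and 78 to 255 with 1 array left out (fewest without colistin array 4). Of the members, 2 were called, and 4 with normexp (C1r and C3 added, where 27.3% of all genes passed), 1 when every one of the 8 arrays had to be well above background (which leaves out Cfi), 1 with slide as a block and 1 to 2 with 1 array left out. With quantile normalization, no filter, the deposited table, the mean of a gene's probes, and without saline replicates 1 and 4 together, C4a and Cfi were the calls. The activator median was 1.14 to 1.89 with 1 array left out and 0.31 with normexp. The median of the regulator pair, 3.58, rests on the fitted value of Cfi, which has no certain size. It was 3.31 to 3.88 with 1 array left out, 1.53 with normexp and 0.94 both without the filter, which adds Cd55, and under that strict filter, which leaves Serping1 alone. Other complement genes called numbered 0, against 5 with normexp and 0 to 1 with 1 array left out. Estimates that turned sign were those of Cfb without saline replicates 1 and 4 together (0.23) and, within single slides, of C1s on slide 2 (-3.39), C2 on slide 1 (-0.63), C3 on slide 2 (-0.32) and Serping1 on slide 2 (-0.0034). The cause was not tested. Samples that share a replicate number did not deviate together (correlations from -0.020 to 0.013 across genes). That does not settle whether the numbers pair samples by design, which the labels do not state. With the number as a replicate block 5 genes and 0 members were called, with adjusted p = 0.0728 for Cfi and 0.118 for C4a (limma; 5 members had an unadjusted p under 0.05).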

Other observations

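Of 16 genes listed as inputs known to induce complement transcription, 13 were tested and 1 passed. It was Cebpb, an acute-phase transcription factor, named here after its value was seen (1.84 ± 0.31, n = 4 per group, adjusted p = 0.0287, limma). It passed in 1 of the 8 fits that left out 1 array, with adjusted p from 0.04 to 0.0898, and did not pass with slide as a block (adjusted p = 0.096). Differences were positive for 6 and negative for 7 of the 13, and the median was -0.24, beside -0.14 for all genes. The interferon regulatory factor gene Irf1 gave 1.38 ± 0.35 (adjusted p = 0.0899, limma), the NF-kB subunit gene Nfkb1 1.88 ± 0.63 (adjusted p = 0.153), Stat3 1.70 ± 0.67 (adjusted p = 0.188) and the cytokine gene Il1b -2.73 ± 1.15 (adjusted p = 0.208). Il6 and Tnf were too dim to be tested.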
